A study of Mus musculus with 8 samples.

Results

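The sites described here are called adenines that follow a thymine and precede an adenine or a thymine, in mouse DNA bound to the histone variant H2A.X. They were chosen by sequence alone. The 41-base context of a call, with the called adenine at base 21, had to hold T at base 20 and A or T at base 22, and the run of A around the call had to be shorter than 4. Calls with A at base 22 are called TAA here, and those with T at base 22 are called TAT. Of 17418 calls in 4 lists, 2254 met the rule, of which 1033 were TAA and 1221 were TAT. They lay at 2177 distinct bases, because some bases were called in more than 1 list.

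TT2 mouse embryonic stem (ES) cells, of a C57BL6 x CBA background, were cultured with no feeder layer, and passages 5 to 10 were used. Native chromatin of Alkbh1 knockout (KO) cells and of wild-type (WT) cells was immunoprecipitated with a customized H2A.X antibody, and a long (L) and a short (S) part of the DNA went through single-molecule sequencing separately. The 8 samples form 4 groups of 2 replicates (KO L, WT L, KO S and WT S). The replicates of a group share 1 deposited list, so no difference between genotypes or parts has a replicate check, and no p-value is given. The labels do not say whether the KO is 1 clone or several, and a list of modified DNA bases holds no marker by which the ES cell label could be checked.

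N6-methyladenine is a methylated base common in bacterial genomes and described at low levels in some animal genomes. ALKBH1, the enzyme removed in the KO cells, belongs to the AlkB family of dioxygenases and has been described as an eraser of this mark in mouse ES cells. H2A.X is the histone variant whose phosphorylation marks DNA breaks. In single-molecule sequencing the polymerase pauses at some modified bases. The inter-pulse duration (IPD) ratio states this pause relative to unmodified DNA, and the modified fraction estimates the share of molecules that carry the change. The dinucleotide TpA reads the same on both strands, so each TpA step holds an adenine on each strand that could be modified. In TAT the called adenine belongs to an ApT step as well, which is also the same on both strands.

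The contexts below show the sites on which the results turn. They were read from the deposited lists, run 5′ to 3′ on the strand of the call, and have the T before the call and the called adenine in capitals. Positions are of build mm10 and span the 41 bases. The first 4 are both strands of a TpA step in Thra and of a step in Zfp335, which illustrate the few steps called on both strands.
Thra plus strand, chr11:98751632-98751672: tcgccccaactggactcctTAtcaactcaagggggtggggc
Thra minus strand, chr11:98751631-98751671: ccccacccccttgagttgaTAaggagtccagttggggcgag
Zfp335 plus strand, chr2:164901430-164901470: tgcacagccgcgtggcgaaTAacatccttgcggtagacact
Zfp335 minus strand, chr2:164901429-164901469: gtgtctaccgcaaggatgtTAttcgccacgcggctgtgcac

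The next set holds the TAT base in Chl1 that was called in all 4 lists, and a TAT and a TAA base in dense windows of calls that were also called in all 4 lists.
Chl1 plus strand, chr6:103649274-103649314: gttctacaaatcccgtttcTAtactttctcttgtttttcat
Chromosome 14 minus strand, chr14:19417821-19417861: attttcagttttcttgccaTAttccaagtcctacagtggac
Chromosome 9 plus strand, chr9:3024294-3024334: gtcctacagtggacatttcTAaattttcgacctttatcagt

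The last set holds contexts that recurred at separate chromosomes with the same or nearly the same letters. The Colec10 and chromosome X lines are identical and so are the chromosome 13 and chromosome 4 lines, while the Lingo2 and chromosome 1 lines differ from each other.
Colec10 minus strand, chr15:54449359-54449399: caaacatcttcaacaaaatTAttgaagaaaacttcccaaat
Chromosome X plus strand, chrX:82041265-82041305: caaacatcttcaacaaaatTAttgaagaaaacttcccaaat
Chromosome 13 plus strand, chr13:14730136-14730176: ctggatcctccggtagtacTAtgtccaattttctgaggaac
Chromosome 4 plus strand, chr4:23138913-23138953: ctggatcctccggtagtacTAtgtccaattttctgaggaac
Lingo2 plus strand, chr4:35869800-35869840: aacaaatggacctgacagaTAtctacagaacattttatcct
Chromosome 1 minus strand, chr1:13886989-13887029: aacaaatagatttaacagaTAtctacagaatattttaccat

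The sites made up 12.6% of calls in KO L (383 of 3044), 14.2% in WT L (549 of 3862), 11.3% in KO S (381 of 3370) and 13.2% in WT S (941 of 7142). TAA calls numbered 186 in KO L, 244 in WT L, 175 in KO S and 428 in WT S. The run of A in them held 2 adenines in 121, 158, 112 and 283 of these calls and 3 adenines in the others. TAT calls numbered 197, 305, 206 and 513 in the same lists. Median coverage at TAA calls was 11, 12, 13 and 16, and at TAT calls it was 10, 10, 11 and 13. Coverage counts reads or passes at the base, and it is known at called bases alone.

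TAT made up a larger share of calls than of the local background in every list, by the smallest ratio in KO S. The local background is the share of the class among adenines at other positions of the contexts of all calls in the list, that is at bases 5 to 37 other than base 21, on the strand of the call. TAT made up 6.47% of calls in KO L (exact 95% interval 5.62% to 7.40%), 7.90% in WT L (7.07% to 8.79%), 6.11% in KO S (5.33% to 6.98%) and 7.18% in WT S (6.60% to 7.81%). The background shares were 4.54%, 4.81%, 5.07% and 5.02%, all below the intervals of the calls. The ratio to background was thus 1.43, 1.64, 1.21 and 1.43. These intervals, like all others here, cover counting error only and treat calls as independent. Background adenines right next to the called adenine cannot be TAT, which lowers the TAT background by construction. An adenine just before the call can still count as TAA, while one just after it cannot. The size of this effect was not computed. In KO S, where 5.07% lay close to the lower bound of 5.33%, whether the background would stay below the interval was not tested.

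TAA stood closer to its background, but the adenines next to the call bear on this contrast with TAT as well. It made up 6.11% of calls in KO L (5.29% to 7.02%), 6.32% in WT L (5.57% to 7.13%), 5.19% in KO S (4.47% to 6.0%) and 5.99% in WT S (5.45% to 6.57%), against background shares of 4.68%, 5.00%, 4.90% and 5.05%. The background lay within the interval in KO S and below it in the other 3 lists. Some calls crowd together, and a dense window is a window of 100 kb with 10 or more calls in any list. The 8 dense windows held 46 of the 383 sites in KO L, 54 of 549 in WT L (9.84%), 59 of 381 in KO S (15.5%) and 80 of 941 in WT S, against 11.7%, 9.43%, 10.6% and 7.99% of all calls. The window chr9:3000001-3100000 held the most, with 23, 21, 29 and 38 sites. Without the dense windows the ratio of TAA to its background was 1.19 in KO L, 1.13 in WT L, 0.859 in KO S and 1.09 in WT S, and the background was below the interval of the calls in KO L and within it in the other 3 lists. The ratio of TAT without them was 1.34, 1.60, 1.13 and 1.38, and the background was within the interval in KO S and below it in the other 3.

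**Figure D1:**
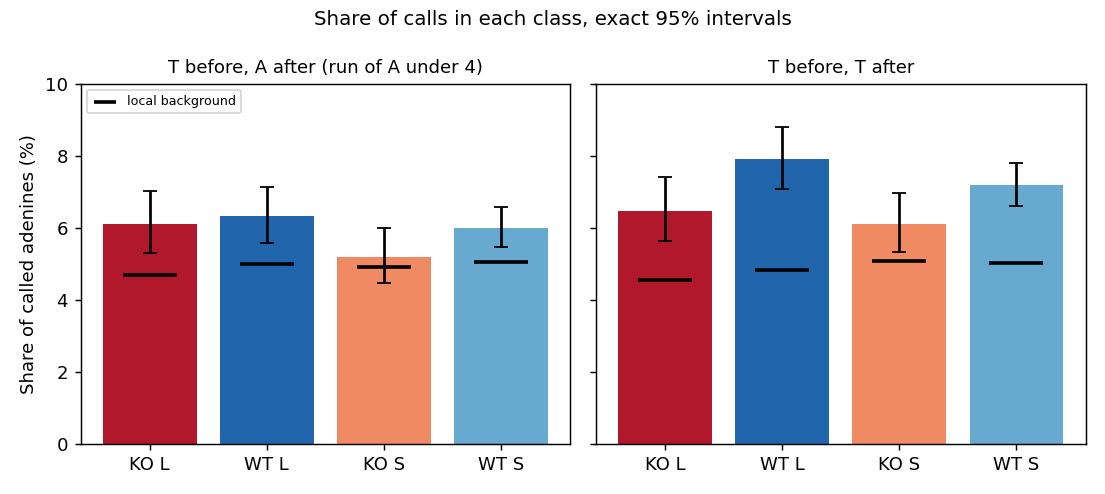
Share of all called adenines (%) in each list for TAA (left) and TAT (right), as bars with exact 95% intervals. Black marks give the local background, and TAT lies above them in the 4 lists. The background includes adenines next to the call, which cannot be TAT.

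The share of TAT was lower in KO than in WT in both parts, by little more than its counting error. In L the difference, KO minus WT, was -1.43 points (Newcombe 95% interval -2.64 to -0.19), and in S it was -1.07 points (-2.05 to -0.04). At coverage 11 to 24 alone these were -0.85 (-2.70 to 1.09) and -1.07 (-2.49 to 0.51), and both intervals include 0. The share of TAA was 0.21 points lower in KO in L (difference -0.21, -1.34 to 0.95) and 0.80 points lower in S (difference -0.80, -1.70 to 0.16), and both intervals include 0. At coverage 11 to 24 alone KO minus WT for TAA came to -1.31 points among L calls (-3.16 to 0.60) and to -1.67 points among S calls (-2.96 to -0.23), so that the S interval excludes 0. Without the dense windows the S interval excludes 0 as well (-1.28, -2.19 to -0.30). These 4 main intervals were not widened for their number. In counts, TAT calls in KO were 0.646 times those in WT in L and 0.402 times in S, TAA calls were 0.762 and 0.409 times, and all calls were 0.788 and 0.472 times.

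Depth moved with the counts in S. At the 28 of these bases called in both S lists, coverage in KO was 0.551 times that in WT (median, 0.474 to 0.668), while at the 13 called in both L lists it was 0.963 times (0.780 to 1.01). Of these bases 25 in S and 11 in L lie in dense windows. At the other 3 in S the ratio ran from 0.354 to 0.655. They are the Chl1 base, position 3109951 of chromosome 12 and position 35305328 of chromosome 9. The chromosome 12 and chromosome 9 bases are copies of the repeated core atttcTAaatttt, described below, which lies mostly in dense windows. Over all calls median coverage was 12 in KO S and 14 in WT S. The part of depth in the shares was not tested. The difference between genotypes did not differ between the parts beyond its error, with S minus L at 0.36 points for TAT (-1.22 to 1.95) and -0.59 for TAA (-2.06 to 0.90). Between the parts, S minus L was -0.36 points for TAT in KO (-1.56 to 0.83) and -0.71 in WT (-1.78 to 0.31). For TAA it was -0.92 in KO (-2.06 to 0.21) and -0.33 in WT (-1.29 to 0.60), so no interval excluded 0.

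The modified fraction separated TAT from TAA in every list. The lists give this fraction at coverage of 11 or more only. Its median at TAT calls was 81.0% in KO L (94 calls), 81.7% in WT L (135), 85.0% in KO S (110) and 83.7% in WT S (331). At TAA calls it was 46.0% (99 calls), 51.1% (145), 46.6% (109) and 56.9% (320) in the same lists. TAT minus TAA was 35.0 points in KO L (20.8 to 49.4), 30.6 in WT L (10.4 to 43.2), 38.4 in KO S (23.9 to 56.3) and 26.8 in WT S (19.2 to 34.3). All other called adenines had medians of 61.5%, 66.3%, 71.5% and 67.4%, between both classes.

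The difference was present in both coverage bands. At coverage 11 to 24, where median coverage of the classes differed by at most 1, TAT had medians of 95% in KO L, 95.3% in WT L, 94.6% in KO S and 93.6% in WT S, and TAA had 60.1%, 63.0%, 70.9% and 68.8%. At coverage of 25 or more TAT had 39.6%, 34.6%, 42.7% and 46.7%, and TAA had 19.4%, 20.9%, 15.4% and 29.2%. The interval of TAT minus TAA excluded 0 in the 4 lists in both bands. Outside the dense windows at coverage of 25 or more it excluded 0 in WT S (28.3 points, 16.2 to 36.9), while it included 0 in KO L, WT L and KO S, with 5, 10 and 7 TAT calls. The fraction was under 50% at 81 of 193 sites in KO L (42.0%), 105 of 280 in WT L (37.5%), 79 of 219 in KO S (36.1%) and 207 of 651 in WT S (31.8%), against 37.4%, 34.4%, 30.2% and 31.4% of all calls.

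Many TAT calls at low coverage were estimated to be modified on every molecule. At coverage 11 to 24 the fraction was 100% at 38.8% of TAT calls in KO L (26 of 67), 35.9% in WT L (37 of 103), 36.5% in KO S (31 of 85) and 42.8% in WT S (110 of 257). For TAA the shares were 15.6% (10 of 64), 8.49% (9 of 106), 9.09% (6 of 66) and 14.3% (33 of 230). Over all calls at this coverage 19.3%, 21.3%, 24.4% and 22.9% were at 100% in the same lists.

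This contrast followed the base after the call and was not particular to calls with T before. At coverage 11 to 24, calls with another base before and T after had a median fraction of 89.1% in KO L, 93.0% in WT L, 97.8% in KO S and 94.6% in WT S. TAT minus these calls was 5.95 points (-6.23 to 13.1), 2.35 (-8.39 to 7.57), -3.20 (-13.1 to 1.74) and -1.0 (-7.04 to 4.60). Calls with another base before, A after and a run of A under 4 had medians of 62.7%, 60.7%, 65.1% and 66.1%. TAA minus these was -2.65 points (-13.3 to 5.14), 2.30 (-9.80 to 9.97), 5.80 (-7.44 to 18.1) and 2.65 (-3.40 to 8.53). All 8 intervals include 0, while T after minus A after among calls with another base before was 26.4 points (20.1 to 34.0), 32.3 (25.4 to 37.8), 32.7 (26.0 to 37.0) and 28.5 (25 to 31.8).

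**Figure D2:**
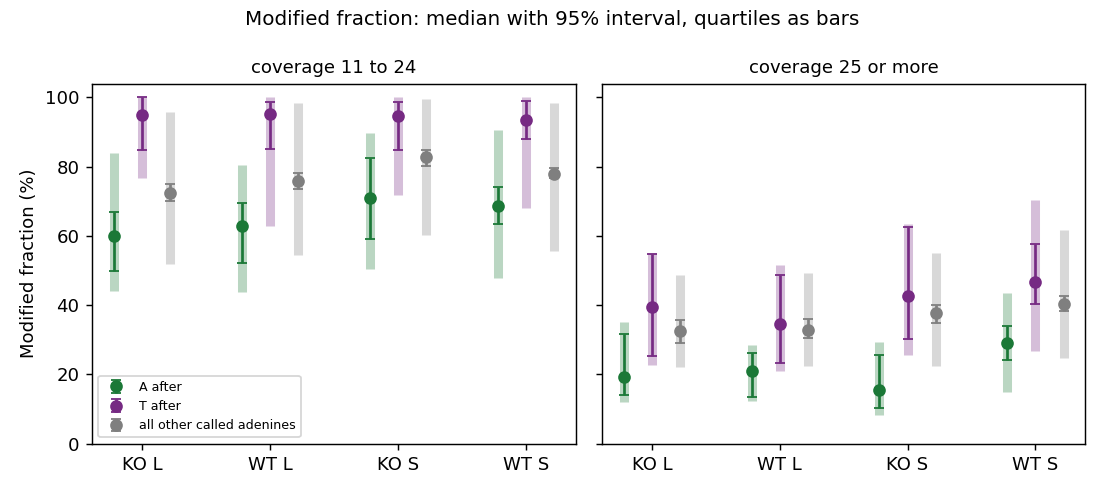
Modified fraction (%) of TAA (A after), TAT (T after) and all other called adenines by list, at coverage 11 to 24 (left) and 25 or more (right). Points are medians with 95% intervals and pale bars are quartiles, and TAT medians lie above TAA medians in the 4 lists of each panel.

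The IPD ratio did not show the same contrast. Its median at TAT calls was 2.45 in KO L, 2.51 in WT L, 2.67 in KO S and 2.49 in WT S, and at TAA calls it was 2.46, 2.45, 2.44 and 2.43. TAT minus TAA was -0.01 (-0.09 to 0.21), 0.07 (-0.12 to 0.20), 0.23 (-0.03 to 0.52) and 0.06 (-0.05 to 0.23), and all 4 intervals include 0. At coverage of 25 or more the interval excluded 0 in KO S (0.18, 0.03 to 0.52). TAA calls had lower IPD ratios than all other called adenines, whose medians were 2.60, 2.58, 2.67 and 2.58. TAA minus these was -0.15 in KO L (-0.29 to -0.08), -0.14 in WT L (-0.23 to -0.0038), -0.23 in KO S (-0.47 to -0.02) and -0.15 in WT S (-0.25 to -0.04). Outside the dense windows this interval included 0 in WT L and KO S. Within coverage bands the contrast was weaker. At coverage 6 to 10 the interval of TAA minus the others included 0 in every list. At coverage 11 to 24 it excluded 0 in KO L only. At coverage of 25 or more it excluded 0 in every list, but outside the dense windows it included 0 in every list in that band.

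Between genotypes the medians of both measures differed by less than their counting error in most settings. For TAA, KO minus WT of the IPD ratio was 0.01 (L, -0.18 to 0.11) and 0.01 (S, -0.25 to 0.24). For TAT these values were -0.06 (L, -0.19 to 0.15) and 0.18 (S, -0.03 to 0.36). For TAA, KO minus WT of the modified fraction was -5.10 points (L, -15.6 to 4.58) and -10.3 points (S, -26.4 to 1.74). For TAT these were -0.70 (L, -17.0 to 21.8) and 1.30 (S, -9.78 to 12.2). All other called adenines had narrower intervals. Their KO minus WT was 0.02 (L, -0.04 to 0.07) and 0.09 (S, 0.05 to 0.15) for the IPD ratio. For the fraction it was -4.80 points (L, -7.98 to -1.60) and 4.05 points (S, 0.85 to 7.09). An exception was TAA in S at coverage of 25 or more, where KO minus WT was -0.21 for the IPD ratio (-0.39 to -0.09) and -13.8 points for the fraction (-20.8 to -2.46). Dense windows held 20.6% of TAA calls in KO S (36 of 175) and 9.58% in WT S (41 of 428), and outside them the difference was 0.07 for the IPD ratio (-0.62 to 1.06) and 0.40 points for the fraction (-33.4 to 18.8), from 9 calls in KO S and 51 in WT S. Another exception was the IPD ratio of TAT in S at coverage 11 to 24 outside dense windows. There KO minus WT was 0.31 (0.0098 to 0.58), from 81 calls in KO S and 255 in WT S. With the dense windows it was 0.30 (-0.0089 to 0.57).

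**Figure D3:**
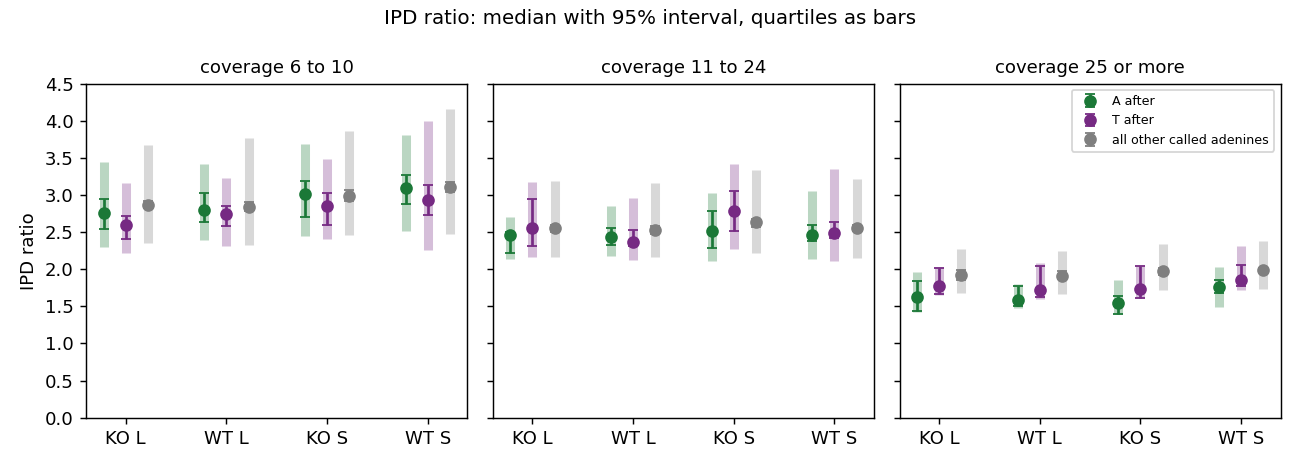
IPD ratio of TAA (A after), TAT (T after) and all other called adenines by list, in 3 bands of coverage. Points are medians with 95% intervals and pale bars are quartiles, and the medians fall from the left to the right panel while TAA lies lowest at coverage of 25 or more.

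The adenine on the other strand of the TpA step was rarely called as well. It was called in the same list at 0 of 383 sites in KO L, 5 of 549 in WT L (0.911%, exact interval 0.296% to 2.11%), 2 of 381 in KO S (0.525%, 0.064% to 1.88%) and 3 of 941 in WT S (0.319%, 0.066% to 0.929%). The exact interval of the 0 in KO L reaches 0.959%, and the limit of 3 counts used for a count of 0 is a share of 0.783%. Among all calls with T before, whatever followed, the share was 0%, 0.707%, 0.627% and 0.274%. These calls include the sites, so the shares are bound to lie near each other. The sites held 5 of the 6 such calls with a partner in WT L, 2 of 4 in KO S and 3 of 4 in WT S. With the partner sought in any of the 4 lists, 1, 6, 2 and 4 sites had one. At coverage of 25 or more no partner was called at any of the 62, 71, 68 and 164 sites, which are 16.2%, 12.9%, 17.8% and 17.4% of the sites, against 14.1%, 11.9%, 15% and 18.6% of all calls. The lists do not give the depth on the other strand where it was not called, so whether an unlisted partner was read deeply enough to be called is not known.

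The 6 steps called on both strands were read at coverage 6 to 18, and none lay in a dense window. Median coverage of all calls was 11 in WT L, 12 in KO S and 14 in WT S. In Thra, a thyroid hormone receptor gene, the plus strand call (TAT, IPD ratio 2.96, fraction 74.8%) faced a minus strand call (TAA, 2.19, 36.5%), both at coverage 13 in WT L. In Zfp335, which encodes a zinc finger protein, the plus strand call in KO S had an IPD ratio of 4.24 and the minus strand call 2.62, both at coverage 8. At chromosome 3, positions 157402407 and 157402408, both strands were TAT calls with a fraction of 100% in WT L, at IPD ratios of 2.36 and 2.22. At chromosome 5, positions 67557561 and 67557562, both strands were TAT calls in WT S with IPD ratios of 3.78 and 3.72 at coverage 10 and 6.

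In the other 2 steps the partner fell outside the rule. At chromosome 3, position 75500168, a TAA call in WT L faced a call followed by C, and in Gm40847 a TAA call at position 18971204 of chromosome 12 in WT S faced a call at the start of a run of 4 or more adenines. Scores of the calls in the 6 steps lay between 20 and 38, where 20 is the lowest score in the lists.

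For TAT the ApT step was also rarely called on both strands. Its opposite adenine was called at 0 of 197 sites in KO L, 3 of 305 in WT L (0.984%), 3 of 206 in KO S (1.46%) and 7 of 513 in WT S (1.36%), against 0%, 0.508%, 0.433% and 0.728% of all calls followed by T. In WT L, KO S and WT S the share thus stood above that of all calls followed by T, which include the sites. The exact intervals were 0.203% to 2.85%, 0.301% to 4.20% and 0.550% to 2.79%, and each holds the share of all such calls. Of these 13 calls, 6 lay in dense windows, unlike the TpA steps. A pair in Acbd5, which encodes an acyl-CoA binding protein of peroxisomes, had TAT calls on both strands at positions 23092957 and 23092958 of chromosome 2 in WT S (fractions 57.3% and 90.9%, coverage 18 and 17).

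Few of these bases recurred between lists. Of the 2177 bases, 2127 were called in 1 list, 30 in 2, 13 in 3 and 7 in 4. Outside the dense windows 2 bases were called in 2 lists, 1 in 3 and 1 in 4. WT L repeated 13 of the KO L sites (3.39%, 1.82% to 5.73%), near the 4.63% of all KO L calls. WT S repeated 28 of the KO S sites (7.35%, 4.94% to 10.4%), against 4.78% of all KO S calls. By class they were 16 of 175 TAA (9.14%) and 12 of 206 TAT (5.83%). Outside the dense windows WT L repeated 2 of 337 KO L sites (0.593%, against 0.261% of all), and WT S repeated 3 of 322 KO S sites (0.932%, against 0.299%). The 3 in S are the Chl1 base and the copies of atttcTAaatttt on chromosomes 12 and 9 named above. Inside the dense windows WT L repeated 23.9% of KO L sites, against 37.5% of all KO L calls there. WT S repeated 42.4% of KO S sites there, against 42.7% of all. Between parts, KO L repeated 16 KO S sites (4.20%, against 3.56% of all), of which 2 lay outside the dense windows (0.621%, against 0.232%). These 2 are the Chl1 base and the same copy of atttcTAaatttt on chromosome 9. WT L repeated 18 WT S sites (1.91%, against 2.38%), of which 1 lay outside (0.116%, against 0.0913%).

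The base that recurred in all 4 lists away from dense windows was a TAT in Chl1, a neural cell adhesion gene. It lies at position 103649294 of chromosome 6. Its IPD ratio was 2.43 in KO L, 2.39 in WT L, 2.75 in KO S and 2.39 in WT S. Its fraction was 45.7%, 47.7%, 63.4% and 44.8%, at coverage 115, 114, 84 and 237, and its score was 72, 78, 82 and 115. These depths are far above the median of 10 to 13 at TAT calls.

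The highest 2 TAT scores of each list fell on the same pair of chromosome 14 bases in a dense window, and in KO S the Chl1 base tied with the second of them at 82. At position 19417841 the score was 138 in KO L, 140 in WT L, 96 in KO S and 141 in WT S, at coverage 611, 453, 481 and 960, while the fraction was only 10.0%, 12.7%, 13.3% and 10.1%. At position 19418452 the score was 105, 80, 82 and 137 and the fraction 56.3%, 43.7%, 67.3% and 53.2%. Coverage at the second base was 114, 115, 70 and 186.

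The highest TAA scores were lower than those of TAT and lay at bases called in 1 or 2 lists. In KO L they were 41 at position 22355833 of chromosome 4 and 39 in Mre11a, a DNA break repair gene. In WT L they were 52 on the unplaced contig JH584304, in a dense window, and 47 at position 81683200 of chromosome 9, where the IPD ratio was 5.85 and the fraction 99.4%. In KO S they were 49 in Sntb2 and 48 both in Slitrk1 and at position 3025950 of chromosome 9, which lies in a dense window and was called in 2 lists. In WT S they were 65 in the chromosome 14 dense window and 62 at position 138583132 of chromosome 3, where the fraction was 100%. The identification score, which states the fit of the kinetics to N6-methyladenine, reached 20 at 12.3% of the sites in KO L, 9.65% in WT L, 13.6% in KO S and 12.1% in WT S, against 13.2%, 11.9%, 14.5% and 16.2% of all calls. The share of all WT S calls lies above the interval of the WT S sites (10.1% to 14.4%).

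The TAA class joins runs of 2 and of 3 adenines, whose medians lay further apart at high coverage. At coverage 11 to 24 the median fraction of runs of 3 was 53.9% in KO L, 64.1% in WT L, 61.9% in KO S and 70.2% in WT S, and that of runs of 2 was 65% in KO L, 60.8% in WT L, 76.2% in KO S and 68.3% in WT S, with overlapping intervals in every list. At coverage of 25 or more runs of 3 had 16.7%, 15.3%, 14% and 17.5%, and runs of 2 had 45.4%, 31.6%, 40.1% and 38.8%, from 7, 9, 7 and 41 calls. The intervals overlapped in KO L and KO S and did not in WT L and WT S. The most frequent repeated core, described next, is a run of 3.

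Some of the sites repeated the same sequence. A core of 13 bases around the call, with 5 bases before the T, was counted as repeated when it was found at 3 or more distinct bases. Such cores held 11.8% of TAA calls in KO L, 9.02% in WT L, 35 of 175 in KO S and 8.64% in WT S, and 7.61%, 4.26%, 8.25% and 7.60% of TAT calls. The most frequent was atttcTAaatttt, at 64 bases with 98 calls (18 in KO L, 16 in WT L, 30 in KO S and 34 in WT S). Of these bases 62 lay in dense windows, and the chromosome 9 context above is an example. Its median coverage was 186, its median IPD ratio 1.44 and its median fraction 13.3%. A second TAA core, tcttcTAaatttt, had 13 bases, all in dense windows, with a median IPD ratio of 1.53. TAA calls outside repeated cores had median IPD ratios of 2.5, 2.54, 2.69 and 2.51 in KO L, WT L, KO S and WT S.

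Of the repeated cores, 6 had no base in a dense window. All 6 are TAT, and their median IPD ratios ran from 2.40 to 4.25, where TAT calls outside repeated cores had medians of 2.49, 2.53, 2.70 and 2.53 in KO L, WT L, KO S and WT S. These cores were singled out after their values were seen. The core aaaatTAttgaag was called at 5 bases on 4 chromosomes, and all 5 had the same 41 bases. It was called in S lists only, with 2 calls in KO S and 3 in WT S, at IPD ratios of 3.59 to 5.61 and a fraction of 100% at each of the 3 calls that have one. The core agtacTAtgtcca was called at 6 bases on 6 chromosomes, again in S lists only, with 2 calls in KO S and 4 in WT S. Its IPD ratios ran from 2.75 to 8.19 and its fractions from 79.4% to 100%, at coverage 6 to 19.

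The core acagaTAtctaca was called at 6 bases on 5 chromosomes, with 0 calls in KO L, 2 in WT L, 2 in KO S and 2 in WT S, at IPD ratios of 1.73 to 3.47. Of the 6 contexts 2 are identical and the others differ in some letters, as the Lingo2 and chromosome 1 lines show. The other 3 cores had 3 bases each. Median IPD ratios were 3.17 for gaaggTAtatcct, called in WT S only, 2.43 for gggcaTAtatcca, called in KO L, KO S and WT S, and 2.40 for tgtctTAttgacg, called in KO L, WT L and WT S. No read sequences were used here, so calls at bases with identical contexts cannot be told apart from reads of 1 copy placed at several.

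The bases beyond the rule also differed from the local background. After TAT the next base was A, giving TATA, at 37.7% of calls over the 4 lists (460 of 1221, 34.9% to 40.5%), against 29.1% of the background. By list the ratio to background was 1.26 in KO L, 1.45 in WT L, 1.04 in KO S and 1.34 in WT S, and 1.30 over all lists outside dense windows. TATG was under-represented, at 14.5% of calls (12.6% to 16.6%) against 23.3%. At base 5 after the call, C stood at 26.4% of TAT calls against 17.5% of the background. By list C was at 26.4%, 20.3%, 34.0% and 26.9%, against 17.7%, 18.5%, 16.9% and 17.1%.

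TAA was more often preceded by C and less often by A. CTAA made up 32.8% of TAA calls (339 of 1033, 29.96% to 35.8%) against 20.6% of the background, and 24.6% against 19.99% outside dense windows. By list it was 37.6%, 29.5%, 33.7% and 32.2%. ATAA made up 23.04% against 35.0%, and TTAA stood at 28.1% against 28.1%. The repeated core atttcTAaatttt is itself a CTAA.

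Over the 4 lists joined, none of 3 known A/T-rich motifs was more frequent at the called adenine than in the background. The search took the strand of the call only, so that the called adenine was a given letter of the motif. AATAAA, the polyadenylation hexamer of mammalian genes, held the call at letter 4 in 3.29% of TAA calls (34 of 1033, 2.29% to 4.57%), against 7.01% of background TAA adenines. TATAAA, the core of the TATA box, held the call at letter 2 in 3.36% of TAT calls against 3.85%, and at letter 4 in 1.06% of TAA calls against 2.37%. ATTTAT, part of the AU-rich element of unstable mRNAs, held the call at letter 5 in 3.604% of TAT calls against 3.78%. In single lists ATTTAT stood above its background in KO L (5.08% against 3.82%), WT L (3.93% against 3.91%) and KO S (2.91% against 2.74%), and TATAAA at letter 2 did so in WT S (4.29% against 3.83%), with the background within the exact interval each time. TATAAA and AATAAA share their last 5 letters, but a call at letter 4 can belong to only 1 of them. A match describes letters and not a working element.

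Outside dense windows the bases before the call were less A/T-rich than around the background adenines of the same class. Background adenines close to a call have the called adenine among their flanking bases, which in part raises their A/T share. There adenine plus thymine made up 57.4% at base 5 before TAT calls, against 65.3% around TAT adenines of the background. At base 2 after TAT calls it was 70.4% against 61.8%. Before TAA it was 57.2% against 63.6% at base 2 and 55.9% against 64.5% at base 9. With the dense windows, TAA calls were above the background at base 3 (67.9% against 66.4%), base 4 (70.1% against 67.7%) and base 8 before the call (66.2% against 63.8%). The median GC content of the 41 bases was 34.1% to 36.6% in both classes and all lists, against 41.5% for the other calls, which the rule in part fixes.

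**Figure D4:**
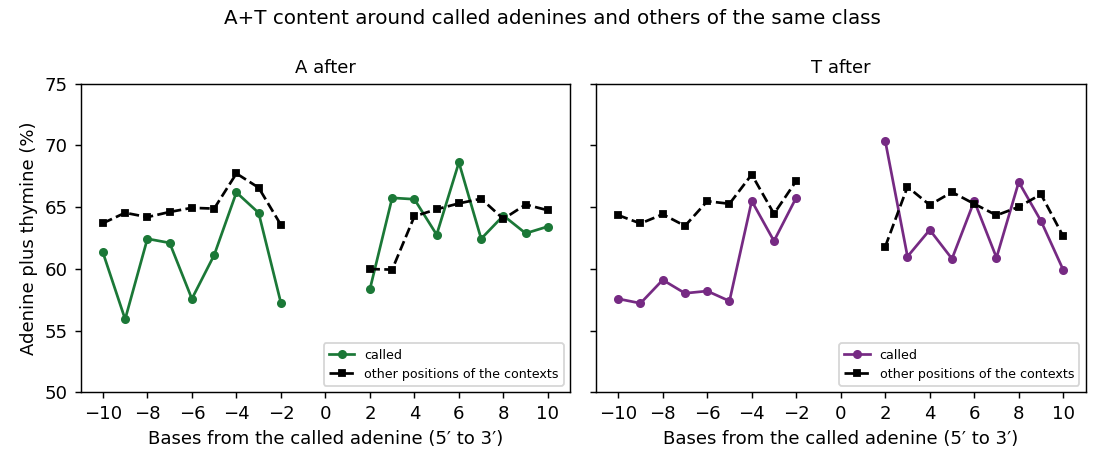
Adenine plus thymine (%) by distance from the adenine, for called TAA (left) and TAT (right) sites of all lists outside dense windows, and for background adenines of the same class (dashed). The 3 bases that the rule fixes are left out, and called TAT sites lie below the dashed line at bases 5 to 10 before the call.

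The share of sites with a close neighbour was higher for TAA than for TAT in WT L and WT S. Another call was listed within 10 bases, on either strand, of 11.3% of TAA calls in KO L, 12.3% in WT L, 10.9% in KO S and 14.7% in WT S. For TAT the shares were 6.60%, 6.56%, 9.71% and 9.16%, and over all calls they were 8.08%, 8.16%, 7.33% and 10.8%. TAA minus TAT was 4.69 points in KO L (Newcombe 95% interval -1.09 to 10.7), 5.74 in WT L (0.858 to 10.97), 1.15 in KO S (-4.98 to 7.56) and 5.56 in WT S (1.42 to 9.84), so the interval excluded 0 in both WT lists and included 0 in both KO lists. Dense windows held 11.3% of TAA calls in KO L, 12.3% in WT L, 20.6% in KO S and 9.58% in WT S. They held 12.7%, 7.87%, 11.2% and 7.60% of TAT calls in the same lists. The share with a close neighbour outside dense windows was not computed. The plus strand held 57.2% of the sites in KO L (52.1% to 62.2%), 55.7% in WT L (51.5% to 59.9%), 56.4% in KO S (51.3% to 61.5%) and 51.9% in WT S (48.6% to 55.1%), against 49.3%, 49.7%, 48.0% and 48.4% of all calls. Calls of the repeated core atttcTAaatttt in the chromosome 9 dense window and on the contig JH584304 were all on the plus strand. The strand share without dense windows or repeated cores was not computed.

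In the genome the sites spread over genes much as all calls did. On chromosomes 1 to 19, X and Y, 45.3% of the sites in KO L (40.1% to 50.5%), 48.1% in WT L (43.8% to 52.5%), 44.9% in KO S (39.7% to 50.2%) and 44.0% in WT S (40.8% to 47.3%) lay between the start and end of a RefSeq gene. Over all calls the shares were 47.4%, 50.3%, 47.8% and 50.2%. Exons and introns were not told apart, since the gene table holds gene ends alone. The share of all WT S calls lies above the interval of the sites in WT S, and in the other lists it lies within. Chromosome X held 2.98%, 2.47%, 1.93% and 2.96% of the sites, against 2.75%, 2.43%, 2.41% and 2.40% of all calls, and chromosome Y held 1.36%, 1.14%, 0.826% and 1.75%, against 1.08%, 0.981%, 1.16% and 1.03%. Alkbh1 (chr12:87428077-87443839) held no call in any list, which does not check the knockout.

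Promoters held few sites. A window of 250 bases before to 50 after the gene start held 3 sites in KO L, 2 in WT L, 2 in KO S and 1 in WT S, or 0.813%, 0.380%, 0.551% and 0.110%, against 0.521%, 0.245%, 0.344% and 0.321% of all calls. All 8 were TAA. TAT had 0 in each list, of 189, 295, 198 and 498 sites. The genes were En1 and Sall1, developmental transcription factor genes, and Gm52237 in KO L, Gm32960 and Gm40060 in WT L, Cyp4a30b and LOC115486880 in KO S, and Ints1, a subunit gene of the Integrator complex, in WT S.

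No gene gathered many sites. Of the genes with a TAA site, of which there were 91 in KO L, 117 in WT L, 80 in KO S and 181 in WT S, none held more than 3 in a list. Calls of any sequence in the same gene and part are given as all calls. For TAA in L, Gm41442 (chr16:31233419-31247607) had 2 sites in KO and 0 in WT, 169 bases from end to end, and no other call. Tnpo1 (chr13:98839019-98926384), which encodes a nuclear import receptor, had 2 in KO and 0 in WT within 56 bases and no other call in L, and Mfhas1 had 1 and 1. For TAA in S, Gm40847 (chr12:18853324-19073782) had 0 sites in KO and 3 in WT within 157 bases, and all calls were 0 in KO and 6 in WT. Gm33838 and Brca1, a DNA repair gene, each had 1 in KO and 1 in WT, at the same base in Gm33838 and 23751 bases from end to end in Brca1. The Gm33838 base is a copy of the repeated core atttcTAaatttt, at coverage 1778 in KO S and 2713 in WT S. Its fraction was 6.9% and 1.8% in these lists.

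Genes with a TAT site numbered 83, 144, 89 and 222, and none held more than 4 in a list. For TAT in L, Atm (chr9:53437122-53536828), the kinase gene of the DNA break response, had 2 sites in KO and 0 in WT within 3 bases, which were all its calls in L. In S it had 1 TAT site in KO and 0 in WT, and all calls were 1 in KO and 3 in WT. In L, Gm20619 and Chl1 each had 1 TAT site in KO and 1 in WT. For TAT in S, Arntl (chr7:113178471-113314126), a clock transcription factor gene, had 0 sites in KO and 4 in WT, all within 11 bases, and all its calls were 0 in KO and 7 in WT. Gm8584 had 0 in KO and 2 in WT within 5 bases, with all calls at 0 and 3. Acbd5 (chr2:23068166-23114513) had 0 in KO and 2 in WT, which are the ApT pair, with all calls at 0 and 4. With counts this low and no replicate, these values describe the lists and not a difference between genotypes.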

How the data were processed

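Native H2A.X ChIP DNA of KO and WT cells was sequenced on single molecules in 4 groups. Positions are of mm10 (named in the submitters' processing notes). Caller, aligner and filters were not given in the sources used here. The authors deposited 1 list per group, and all lists were used without a filter. The deposited score has a lowest value of 20 and an unstated scale. The deposited IPD ratio is linear, the deposited coverage is an unnormalized signal, and the deposited modified fraction is given at coverage of 11 or more. The extract protocol in the labels speaks of repeated sequencing, so replicates may be technical.

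Shares have exact Clopper-Pearson 95% intervals, differences of shares Newcombe intervals, and medians order-statistic intervals joined by the MOVER method. All treat calls as independent and cover counting error only. The local background took adenines at bases 5 to 37 of the same contexts, other than the call. Classes, paired calls and the intervals of shares and medians were tested on simulated data. The members and lists were chosen with earlier results of these data known. Genes and sites were named by rule: Alkbh1, the 3 genes with most sites (2 or more) per class and part, bases in 3 or more lists, steps called on both strands, and the 2 highest scores per list and class. Examples of each are given. The contrasts of modified fraction between flanking bases and the repeated cores were chosen after their values were seen. Genes and promoter windows came from RefSeq tables (GRCm38.p6, 49939 genes and 32851 windows). Alternatives were other minima of score, coverage and identification score, the dense windows, other chromosomes and other class definitions. Python 3.11.15, pandas 2.3.3, numpy 2.4.6, scipy 1.17.1 and matplotlib 3.10.9 were used.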

Additional observations from a re-analysis of the deposited data

How the results depend on the processing

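No paired analysis was possible because the replicates of a group share a list, and for the same reason no replicate could be left out. KO minus WT for TAT kept its negative sign in all 14 alternatives, and the interval excluded 0 in 5 (without dense windows and on chromosomes 1 to 19, X and Y in both parts, and among calls with T before in L). Among calls with T before, it was -5.29 points in L and -2.80 in S, on another denominator. For TAA the sign held in 10 of 16. It was 1.60 in L at an identification score of 20 or more. In S it was 0.90 at that setting, 1.75 at coverage of 25 or more and -1.85 among calls with T before. The interval excluded 0 in 3, all in S, which were without dense windows (-1.28, -2.19 to -0.30), at coverage 11 to 24 (-1.67, -2.96 to -0.23) and with any run of A (-1.33, -2.31 to -0.30). At coverage of 25 or more in S, KO minus WT for TAA turned sign without dense windows, an alternative chosen after seeing the data, at 0.07 for the IPD ratio and 0.40 points for the fraction. At a score of 30 or more on both strands, the TpA partner was called at 0% of 89 WT L sites and at 0% of 73 KO S sites. For the IPD ratio the sign held in 12 of 20. KO minus WT for TAA was 0.12 in L at a score of 30 or more and -0.32 in S at an identification score of 20 or more. For TAT it was 0.19 in L at coverage 11 to 24 and -0.13 in S at coverage of 25 or more. TAT minus TAA in modified fraction, whose alternatives were chosen after seeing the data, kept its sign in all 20, with the interval excluding 0 in 14. It was 20.2 points in KO L and 17.6 in WT S at coverage of 25 or more, 20.7 in KO L at a score of 30 or more, 23.7 in KO S at coverage 11 to 24, and 56.8 in KO S and 41.5 in WT S at an identification score of 20 or more. The cause of these shifts was not tested.

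Depth limits the rest. Coverage was known at called bases only, with medians of 10 to 16 per class and list. The depth of bases missing from a list is unknown.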

Other observations

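On chromosome 3 the sites were few in KO S. They numbered 4 of 125 calls there (3.20%, 0.879% to 7.99%), the lowest share of any autosome in that list, where the next lowest was 4.41% and the median over autosomes was 10.95%. In WT S they numbered 58 of 371 (15.6%, 12.1% to 19.7%). In L they numbered 21 of 145 in KO (14.5%, 9.19% to 21.3%) and 39 of 200 in WT (19.5%, 14.2% to 25.7%). Median coverage of calls on the chromosome was 10 in KO L, 10 in WT L, 11 in KO S and 13 in WT S. The chromosome was picked from 19 autosomes after its values were seen, so the difference is a description. The lowest autosome was another one in each of the other lists, at 5.84% on chromosome 7 in KO L, 8.89% on chromosome 12 in WT L and 10.5% on chromosome 17 in WT S.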
